A study of Mus musculus with 8 samples.

Results

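Antigen processing and presentation in mouse liver was read from 68 of the 21878 genes of the count table. They are the genes that the authors' annotation places in the KEGG pathway of that name, which held 84 genes, after leaving out the 16 that it also places in protein processing in the endoplasmic reticulum or in the proteasome. The 16 include the chaperones Calr, Canx and Pdia3, the PA28 proteasome activators and Ifng. The members comprise 30 class I genes, 15 class II genes, 8 transcriptional regulators, 10 receptor or cytokine genes and 5 others. The class II genes include 5 endosomal enzymes, Ctsb, Ctsl, Ctss, Lgmn and Ifi30. Class II medians below include these enzymes and are not medians of the surface chains.

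The libraries hold liver RNA of C57BL/6 mice, with an age of 14 to 16 days given for tumor and normal liver alike. Mice were wild type or Nfib f/f Alb-Cre, in which Cre driven by the albumin promoter deletes Nfib in hepatocytes; these are called knockout here (nfib-/- in the labels). Tumor was sequenced in 3 wild-type (1, 2 and 3) and 2 knockout libraries (2 and 3), and normal liver in 2 wild-type libraries (2 and 3) and 1 knockout library (3). No treatment is given for any group. Which liver cells lost Nfib, and in what share, is not shown by these data. Nothing in the labels says that the libraries come from separate animals, so p-values measure only the spread between these libraries.

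Total counts ran from 11912549 to 19965842 per library. Nfib itself stood at 103.7 and 77.7 CPM (counts scaled by the library total) in wild-type normal 2 and 3, at 61.4, 41.5 and 82.1 in wild-type tumors 1, 2 and 3, at 82.0 in knockout normal 3, and at 88.0 and 78.3 in knockout tumors 2 and 3. It was thus no lower in the libraries labelled knockout, which is how every genotype below should be read; which part of the transcript the deletion removes is not given in the sources used here. All 6 hepatocyte markers were counted in every library. Some libraries stood apart in markers of other tissues: the summed skeletal muscle markers reached 1460 CPM in knockout tumor 2 and 468 in knockout normal 3 against 1.38 to 66.0 elsewhere, the squamous epithelium markers 474 in knockout tumor 2 against at most 3.18, and the neutrophil markers 244 and 265 in knockout normal 3 and knockout tumor 3 against 19.0 to 46.8. Their part in the results below was not tested, and class medians without 1 library are given where they moved most.

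Class I molecules show peptides from inside a cell to CD8 T cells. A heavy chain folds with beta-2 microglobulin around a peptide that the Tap1 and Tap2 pump brings into the endoplasmic reticulum, with tapasin, the product of Tapbp, holding the chain near the pump. Class II molecules show peptides from endosomes to CD4 T cells: the invariant chain Cd74 fills the groove until proteases such as cathepsin S degrade it and the H2-DM editor exchanges the remnant for a peptide. Most nucleated cells, hepatocytes included, make class I, whereas class II is made mainly by dendritic cells, B cells and macrophages. H2-Q10 is a mouse class I chain that hepatocytes secrete.

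The mouse chains lie together in the H2 complex. In GRCm38, 42 of the 68 members, 35 of them with an H2 symbol, fall within chr17:33915899-37483552. The windows from 250 bases before to 50 after the gene start (RefSeq, GRCm38.p6), available for 55 members, are shown for the 3 most abundant heavy chains, their partner B2m, and a class II alpha and beta chain, because most of the levels below turn on them. Capitals mark the CCAAT box (CCAAT, or ATTGG on the other strand) and, in B2m, the core of the interferon response element (GAAA, any 2 bases and GAAA, or TTTC, any 2 bases and TTTC on the other strand). The motifs do not overlap each other. For H2-K1 the first of 2 listed windows is shown.
H2-K1 (chr17:34000298-34000597, minus strand): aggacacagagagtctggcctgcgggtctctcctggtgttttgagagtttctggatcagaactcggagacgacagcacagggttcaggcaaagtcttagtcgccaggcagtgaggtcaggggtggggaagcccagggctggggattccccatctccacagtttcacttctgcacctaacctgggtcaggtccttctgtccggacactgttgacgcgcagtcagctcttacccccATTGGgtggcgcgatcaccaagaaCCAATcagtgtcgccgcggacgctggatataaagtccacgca
H2-D1 (chr17:35262844-35263143, plus strand): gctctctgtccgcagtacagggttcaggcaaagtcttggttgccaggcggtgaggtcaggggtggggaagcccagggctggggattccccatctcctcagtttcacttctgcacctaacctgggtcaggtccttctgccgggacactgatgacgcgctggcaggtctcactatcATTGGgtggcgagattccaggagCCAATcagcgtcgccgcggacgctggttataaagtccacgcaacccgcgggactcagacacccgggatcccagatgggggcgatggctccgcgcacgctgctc
H2-Q10 (chr17:35469839-35470138, plus strand): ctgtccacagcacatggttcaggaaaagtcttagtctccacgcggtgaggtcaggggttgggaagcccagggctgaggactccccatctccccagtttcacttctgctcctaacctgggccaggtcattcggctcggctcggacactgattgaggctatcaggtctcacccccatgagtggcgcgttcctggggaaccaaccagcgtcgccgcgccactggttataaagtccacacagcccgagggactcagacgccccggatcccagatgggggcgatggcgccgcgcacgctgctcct
B2m (chr2:122147437-122147736, plus strand): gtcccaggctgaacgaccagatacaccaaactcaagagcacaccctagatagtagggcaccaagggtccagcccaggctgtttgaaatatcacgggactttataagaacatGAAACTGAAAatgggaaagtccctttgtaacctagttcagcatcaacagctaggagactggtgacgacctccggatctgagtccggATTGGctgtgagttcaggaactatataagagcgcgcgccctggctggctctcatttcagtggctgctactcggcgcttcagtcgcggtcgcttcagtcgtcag
H2-Aa (chr17:34287774-34288073, minus strand): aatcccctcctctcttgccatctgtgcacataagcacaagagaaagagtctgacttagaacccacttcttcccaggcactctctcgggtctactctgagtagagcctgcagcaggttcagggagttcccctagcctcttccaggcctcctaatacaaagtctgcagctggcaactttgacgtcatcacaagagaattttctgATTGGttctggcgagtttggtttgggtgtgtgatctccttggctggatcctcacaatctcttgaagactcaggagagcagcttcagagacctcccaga
H2-Eb1 (chr17:34305617-34305916, plus strand): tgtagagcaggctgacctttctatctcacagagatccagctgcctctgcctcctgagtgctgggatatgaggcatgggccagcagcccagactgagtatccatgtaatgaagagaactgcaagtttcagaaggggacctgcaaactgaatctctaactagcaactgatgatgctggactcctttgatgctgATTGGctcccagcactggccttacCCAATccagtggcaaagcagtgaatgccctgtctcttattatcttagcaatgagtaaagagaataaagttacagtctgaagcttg

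The CCAAT box was in the windows of 20 of 23 heavy chains (87.0%) and 6 of 7 class II chains and editors (85.7%), against 37.9% of all 27025 windows. The interferon element core was in 2 of the 23 heavy chains, H2-T22 and H2-T23, in none of the 7 class II windows, and in 3.49% of all windows. Where aligned, the H2-K1 and H2-D1 windows were 90.4% identical over 228 columns, and H2-Q10 was 84.1% identical to H2-D1 over 302. The H2-Q10 window held neither motif, and those of H2-K1 and H2-D1 held no interferon element core. This says only that these letters are not in them. Other forms of either element were not searched, so a window without a match may still hold one.

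Levels of different genes are compared in the deposited FPKM, which divide counts by transcript length and library total. The class I partner B2m was the most abundant member, with 3105 ± 483 FPKM (SD over the 8 libraries). H2-Q10 followed at 1103 ± 148 FPKM, above the classical chains H2-K1 at 786 ± 110.4 FPKM and H2-D1 at 476 ± 42.6 FPKM. The nonclassical chain H2-T23, whose product binds the NKG2A receptor, came next at 199.8 ± 36.3 FPKM. H2-T22, H2-Q4 and H2-Q7 lay between 49.1 and 64.5 FPKM. Of the class II genes, the invariant chain Cd74 stood at 140.3 ± 26.9 FPKM and the surface chains H2-Aa, H2-Ab1 and H2-Eb1 at 69.3 ± 14.2, 63.0 ± 12.2 and 43.0 ± 8.92 FPKM, whose ranges overlapped. H2-Q10, H2-K1 and H2-D1 together took 86.0% to 88.5% of the heavy chain counts of a library. The FPKM imply lengths of 1473 bases for H2-Q10 and 2176 for H2-K1, whereas their joined GENCODE exons cover 4348 and 2938 bases. The order of these 2 chains by FPKM thus depends on the length used. Near-identical heavy chains can share or lose reads in counting, so the split between them is uncertain. Summed, they took 4996 and 4443 CPM in wild-type normal 2 and 3, 5331, 3919 and 4733 in wild-type tumors 1, 2 and 3, 5019.7 in knockout normal 3, and 4907 and 4935 in knockout tumors 2 and 3. By library totals, wild-type tumor 1 had the highest sum and wild-type tumor 2 the lowest. With the TMM factors that the tests below use, wild-type tumor 1 stayed highest, at 5632. The lowest was then wild-type normal 2, at 4220 against 4352 in wild-type tumor 2.

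Not every member was expressed. Counts were 0 in all libraries for 11 members: the heavy chains H2-T3, H2-M1, H2-M9, H2-M10.2, H2-M10.3, H2-M10.4, H2-M10.6 and H2-M11, the class II pseudogene H2-Ea-ps, and the killer receptors Kir3dl1 and Kir3dl2. A library with a count of 0 allows up to 0.150 to 0.252 CPM, by counting error alone. Another 6 members had at most 22 counts over all libraries and did not pass the expression filter. The 51 that passed were 19 class I genes, 14 class II genes, the 8 regulators, 8 receptor or cytokine genes and 2 others. All members together took 0.906% to 1.10% of a library's counts.

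The classical chain H2-K1 was at 1898 and 1791 CPM in wild-type normal 2 and 3, 1609.7, 1154 and 1829 in wild-type tumors 1, 2 and 3, 1830.2 in knockout normal 3, and 1823 and 1745 in knockout tumors 2 and 3. B2m was at 3360.3 and 2478 CPM in the wild-type normal libraries, 2429, 1932 and 2758 in the wild-type tumors, 2942 in knockout normal, and 2740.4 and 2671 in the knockout tumors, in the same order. Both genes were lowest in wild-type tumor 2, with library totals as with the TMM factors that the tests below use. By library totals, tumor and normal overlapped for both genes, and so did the genotypes. Across the 8 libraries their log2 CPM had Pearson r = 0.890, a description that shares library totals on both sides.

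The other classical chain, H2-D1, was also lowest there by library totals but by little, and not with TMM scaling. It was at 809 and 753 CPM in wild-type normal 2 and 3, 893, 738 and 779.8 in wild-type tumors 1, 2 and 3, 914 in knockout normal 3, and 794 and 923 in knockout tumors 2 and 3. The secreted chain H2-Q10 was at 1713 and 1349 CPM in the wild-type normal libraries, 2101, 1521.5 and 1526 in the wild-type tumors, 1599.9 in knockout normal, and 1602 and 1582 in the knockout tumors. Wild-type tumor 1 had its highest level and wild-type normal 3 its lowest. Counts of H2-Q10 over those of H2-K1, a ratio free of library scaling, reached 1.31 and 1.32 in wild-type tumors 1 and 2. The other 6 libraries, wild-type tumor 3 and both knockout tumors among them, lay between 0.753 and 0.907. By the deposited FPKM the secreted chain was above the classical one in every library, at 1.11 to 1.95 times, an order that depends on the length used. By counts it was above in those 2 tumors alone. The H2-D1 to H2-K1 count ratio was also highest there, at 0.555 and 0.640, against 0.421 to 0.529.

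Of the nonclassical chains, H2-T23 was at 207 and 249.9 CPM in wild-type normal 2 and 3, 302, 180.4 and 266 in wild-type tumors 1, 2 and 3, 312 in knockout normal 3, and 289.7 and 298 in knockout tumors 2 and 3. H2-T22, recognised by some gamma delta T cells, was at 113 and 103 CPM in the wild-type normal libraries, 148, 102 and 114 in the wild-type tumors, 147 in knockout normal, and 137 and 153 in the knockout tumors. The knockout libraries lay toward the top for both genes but wild-type tumor 1 lay among them, so the genotypes overlapped. H2-Q1 was more uneven: 6.97 and 10.7 CPM in the wild-type normal libraries, 25.6, 6.26 and 12.5 in the wild-type tumors, 10.41 in knockout normal, and 22.4 and 18.4 in the knockout tumors. H2-Q4 was at 83.9 to 121 CPM, H2-Q7 at 58.6 to 89.9, H2-Q6 at 21.0 to 30.5, H2-T24 at 2.20 to 8.16 and H2-M3 at 3.61 to 6.80 CPM, with tumor and normal, and knockout and wild type, overlapping in each.

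The tapasin gene Tapbp was at 89.6 and 102 CPM in wild-type normal 2 and 3, 117, 119 and 111 in wild-type tumors 1, 2 and 3, 122 in knockout normal 3, and 121 and 126 in knockout tumors 2 and 3. Tap2 was at 41.3 and 33.2 CPM in the wild-type normal libraries, 47.0, 45.5 and 40.5 in the wild-type tumors, 43.1 in knockout normal, and 45.8 and 44.8 in the knockout tumors. Tap1 was at 37.4 and 25.6, then 37.3, 39.2 and 33.3, then 30.5, then 34.0 and 37.8 CPM. By library totals the 2 wild-type normal libraries were the lowest for Tapbp, and wild-type normal 3 was the lowest for Tap1 and Tap2. Nlrc5, the activator of class I promoters and no member of the pathway as annotated, was at 17.8 CPM in wild-type tumor 2, whereas the other 7 libraries lay between 40.8 and 53.1 CPM. Tap1, Tap2 and Tapbp were not low in that library.

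**Figure D1:**
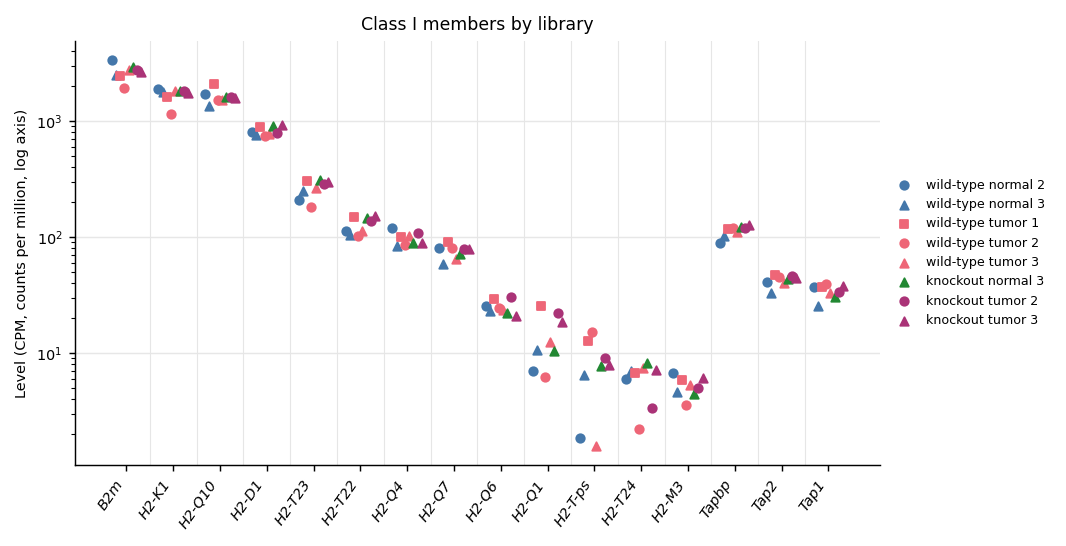
CPM on a log axis of the better expressed class I members, 1 point per library, with colour for group and shape for library number. B2m, H2-K1, H2-Q10 and H2-D1 lie highest, and the circle of wild-type tumor 2 is the lowest point for B2m and H2-K1 but not for H2-Q10.

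The class II surface chains moved together from library to library. H2-Ab1 was at 103 and 55.4 CPM in wild-type normal 2 and 3, 66.4, 88.3 and 74.9 in wild-type tumors 1, 2 and 3, 69.5 in knockout normal 3, and 70.4 and 73.1 in knockout tumors 2 and 3. The invariant chain Cd74 was at 258 and 143 CPM in the wild-type normal libraries, 179, 243 and 214 in the wild-type tumors, 169 in knockout normal, and 196 and 186 in the knockout tumors. The highest and the lowest library of both genes were the 2 wild-type normal livers, between which all tumors and all knockout libraries lay. Over the 8 libraries r was 0.970 for H2-Aa with H2-Ab1, 0.9746 for H2-Aa with H2-Eb1 and 0.956 for H2-Ab1 with Cd74, again a description. The alpha to beta count ratio H2-Aa to H2-Ab1 stayed between 0.894 and 1.03. With TMM factors, which ranged from 0.901 in wild-type tumor 2 to 1.18 in wild-type normal 2, H2-Ab1 was highest in wild-type tumor 2, at 98.1 against 87.0 in wild-type normal 2, so the top library depended on the scaling.

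The summed surface chains were at 308 and 163 CPM in wild-type normal 2 and 3, 197, 251 and 230.3 in wild-type tumors 1, 2 and 3, 192 in knockout normal 3, and 208 and 219 in knockout tumors 2 and 3. Markers of Kupffer cells and macrophages, all 11 of them counted in every library, summed to 649.8 and 815 CPM in the wild-type normal libraries, 449.9, 176 and 875 in the wild-type tumors, 766 in knockout normal, and 311 and 752 in the knockout tumors. Wild-type tumor 2 had the lowest macrophage sum and, by library totals, the second highest class II sum. With TMM factors its class II sum was the highest, at 279 against 260 in wild-type normal 2. The Kupffer cell marker Clec4f was at 6.11 CPM in wild-type tumor 2 against at least 49.8 elsewhere. The other macrophage markers were lowest there too, except Cd68. Cd68 was at 22.1 CPM in wild-type tumor 2, above wild-type tumor 1 at 20.8 and knockout tumor 2 at 17.8. The 7 B cell markers summed to 6.21 to 29.7 CPM and the 8 dendritic cell markers to 24.3 to 39.8 CPM, with wild-type tumor 2 lowest for the former. The dendritic cell markers were split in that library. Cd209a and Siglech were at their highest there, at 2.55 and 1.75 CPM. Zbtb46, Xcr1, Clec9a and Batf3 were at their lowest, at 4.86, 0.301, 1.60 and 0.451 CPM, and Itgax and Flt3 lay between. In bulk RNA, fewer cells of a type and less RNA per cell cannot be told apart.

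The peptide editor H2-DM had few counts. Its subunit genes H2-DMa and H2-DMb1 were at 6.31 to 10.7 CPM and 5.04 to 10.49 CPM. By library totals both were highest in wild-type normal 2, as the surface chains were. With TMM factors H2-DMa was highest in knockout tumor 3, at 9.69 against 9.08 in wild-type normal 2. H2-DMb2 was at 1.02 to 2.99 CPM. H2-Oa and H2-Ob encode an inhibitor of the editor for which B cells are known. H2-Oa was at 0.640 to 1.55 CPM, and H2-Ob at 1.30 CPM in wild-type tumor 2, its lowest, and at 1.93 to 3.67 CPM elsewhere. Of the endosomal enzymes, Ctsl, a protease that hepatocytes also use in lysosomes, was at 596 and 437 CPM in wild-type normal 2 and 3, 449.7, 1415 and 502 in wild-type tumors 1, 2 and 3, 667 in knockout normal 3, and 640.1 and 730.2 in knockout tumors 2 and 3. Wild-type tumor 2 stood apart, and the others lay at 730.2 CPM or below. Ctss, the cathepsin of antigen presenting cells, was at 52.7 to 53.2 CPM in wild-type tumors 1 and 2 and knockout tumor 2 with the other 5 libraries between 68.2 and 82.3 CPM. The 3 libraries low in Ctss were those with the 3 lowest macrophage marker sums; the part of those cells was not tested.

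**Figure D2:**
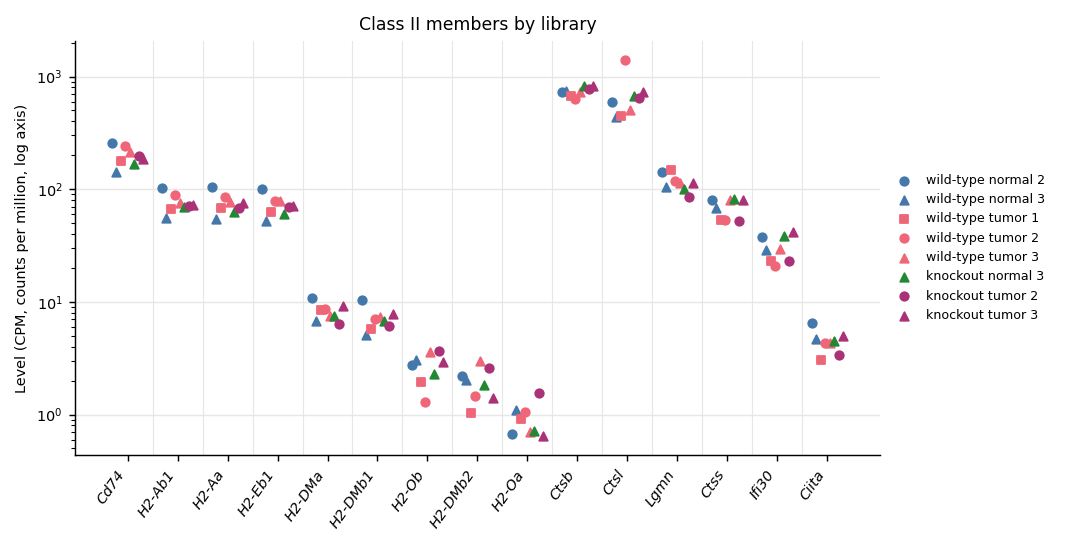
CPM on a log axis of the class II members with their activator Ciita, 1 point per library, with colour for group and shape for library number. For the 3 surface chains and Cd74 the 2 wild-type normal libraries are the highest and the lowest point, and the single high point of Ctsl is wild-type tumor 2.

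**Figure D3:**
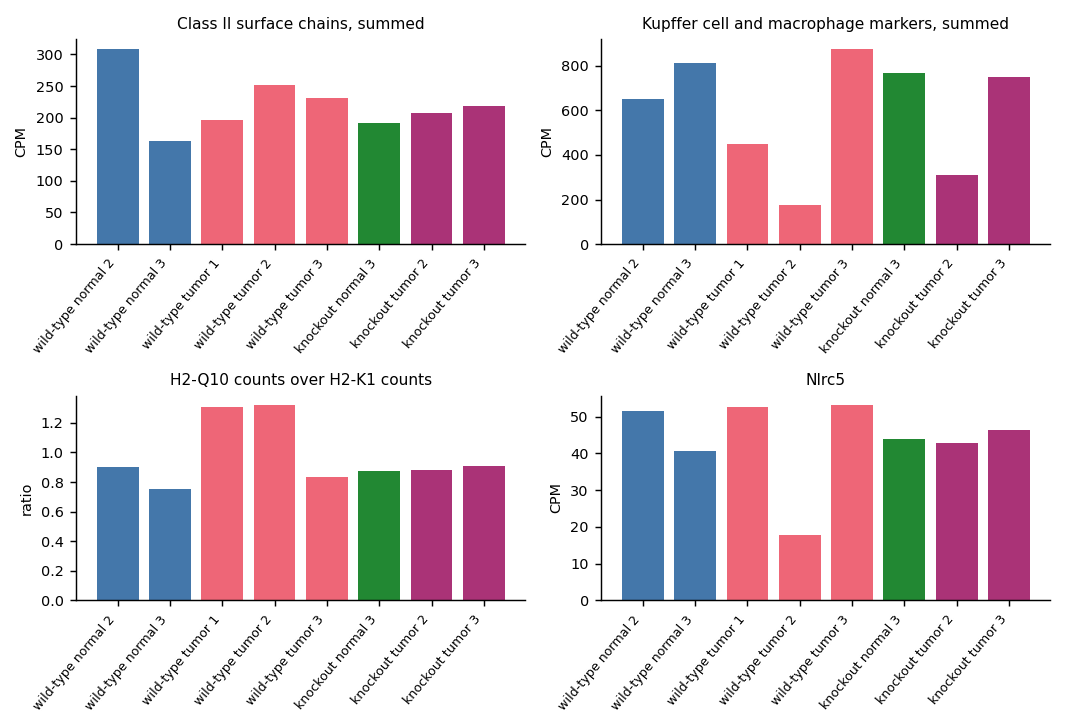
Bars starting at 0 give, for each of the 8 libraries, the summed class II surface chains (CPM), the summed Kupffer cell and macrophage markers (CPM), the count ratio of H2-Q10 to H2-K1, and Nlrc5 (CPM). By library totals, as drawn, wild-type tumor 2 is lowest for the macrophage markers, at 176 CPM, and for Nlrc5, at 17.8 CPM. Its class II sum of 251 CPM is the second highest as drawn, and the sum with TMM factors is the highest. The ratio passes 1 in wild-type tumors 1 and 2.

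Among the regulators, Ciita, the master activator of class II genes, was at 3.07 to 6.46 CPM, highest in wild-type normal 2 and lowest in wild-type tumor 1. Rfx5, Rfxap and Rfxank, the subunits of the RFX complex on class II promoters, ranged over 11.1 to 17.2, 9.43 to 15.3 and 10.42 to 24.3 CPM. Creb1 and the CCAAT-binding subunits Nfya, Nfyb and Nfyc lay between 13.3 and 35.7 CPM. The receptors of T and NK cells had few counts: Cd4 was at 1.55 to 3.51 CPM, Cd8a at 1.49 to 3.44 CPM and Klrd1 at 0.454 to 1.78 CPM. The cytokine Tnf was at 0.284 to 2.43 CPM.

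With TMM scaling, the SD of log2 CPM over the 8 libraries had a median of 0.319 over the 12924 genes with a mean of at least 1 CPM. It was 0.238 over 18 class I members, 0.251 over 13 class II members and 0.165 over the 8 regulators, as a description. Over 4 receptor or cytokine members it was 0.377, above the median of all genes. Within class I the spread was unequal. For H2-Q4 only 2.53% of these genes had a smaller SD, for B2m 11.7%, and for H2-T-ps 94.5%. The B2m share was 28.8% with library totals. The shares are over genes of every level from 1 CPM up, and genes of like level were not compared.

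**Figure D4:**
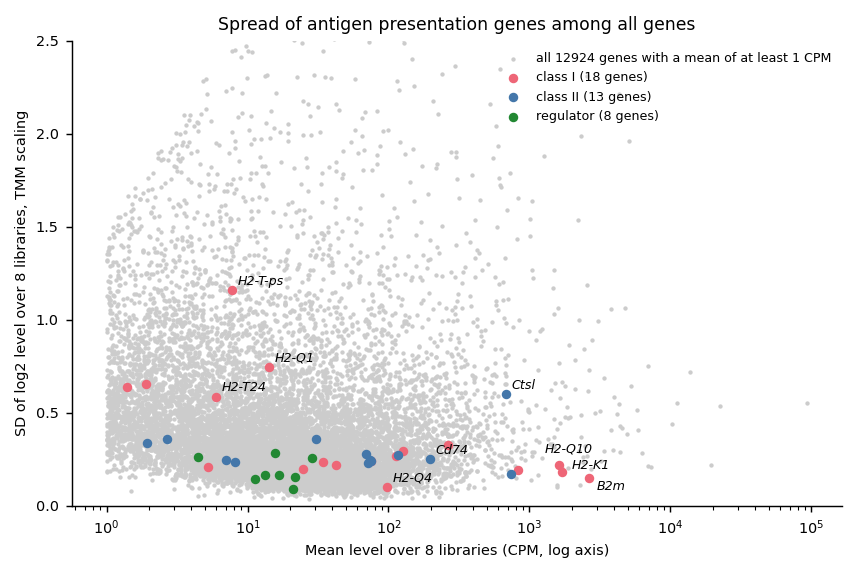
SD of log2 CPM over 8 libraries (TMM scaling) against mean CPM (log axis) for genes with a mean of at least 1 CPM, grey, with class I, class II and regulator genes coloured; the vertical axis ends at 2.5. Most coloured points lie low, and H2-T-ps, H2-Q1 and Ctsl stand above the rest of the members at their level.

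The first comparison asks whether tumors of the 2 genotypes differ in antigen presentation. No member passed the threshold between knockout and wild-type tumors, and no gene did (0 of 14726, 0.0%, edgeR's quasi-likelihood test, Benjamini-Hochberg adjusted p under 0.05; 430 genes, 2.92%, had an unadjusted p under 0.05, no member among them). DESeq2 called 4 genes and limma-voom 0, with no member among them. The classical and secreted chains differed by little on the log2 scale: H2-K1 by 0.18 ± 0.31 (SE, 95% interval -0.55 to 0.92), H2-D1 by 0.05 ± 0.28 and H2-Q10 by -0.16 ± 0.32. The class II chain H2-Aa differed by -0.15 ± 0.26 (interval -0.77 to 0.47) and Cd74 by -0.20 ± 0.28. The median difference was 0.04 over the 19 class I genes and -0.05 over the 14 class II genes, beside -0.0037 over all genes. Class I and class II were at -0.08 and -0.26 without knockout tumor 3, at 0.14 and -0.03 without knockout tumor 2, and at 0.13 and -0.15 without wild-type tumor 1.

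With TMM scaling, 6 of the 51 members had both knockout tumors above all wild-type tumors, where 9.76% of all genes did, and 0 had both below, where 7.56% did. They were H2-K1, B2m, the cathepsin gene Ctsb, the NK receptor genes Klrc3 and Klrd1, and the predicted gene Gm10499. Some gaps were narrow. Knockout tumor 2 stood against wild-type tumor 3 at 1742.7 and 1735.9 CPM for H2-K1, and at 2619.2 and 2617.5 for B2m. For Klrc3, knockout tumor 3 and wild-type tumor 3 were at 0.488 and 0.483 CPM, with 8 counts in each. The upper count was near the share of all genes, while the lower count of 0 was under it, which was not tested. By library totals H2-K1 and B2m overlapped, because wild-type tumor 3 lay above the knockout tumors, and 4 members were higher and 1 lower, where 9.65% and 7.46% of all genes were. The members with the smallest p were Rfxank at 0.30 ± 0.20 and the thiol reductase gene Ifi30 at 0.40 ± 0.29 on the upper side, after Gm10499, which has almost no counts. On the lower side they were the endosomal protease gene Lgmn at -0.41 ± 0.26, H2-Q2 at -0.85 ± 0.73 and Cd8b1 at -0.85 ± 0.79, all with an adjusted p of 0.888 in edgeR.

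Over both tissues, with tissue as a term in the model, knockout and wild type again had no called gene (0.0% of 14726; 1009 genes, 6.85%, had an unadjusted p under 0.05, no member among them). DESeq2 called 45 genes and limma-voom 0, again without a member. The heavy chains summed to 4954 ± 58.5 CPM in knockout (SD, n = 3) and to 4684 ± 539 CPM in wild type (SD, n = 5). The class II surface chains summed to 206 ± 13.5 CPM and 229.9 ± 55.3 CPM. In both cases the knockout libraries lay within the range of the wild-type ones. The smallest p above 0 belonged to H2-T22 at 0.36 ± 0.18 (95% interval -0.08 to 0.79, edgeR adjusted p = 0.714), Ifi30 at 0.40 ± 0.21 and H2-T23 at 0.34 ± 0.23. Lgmn was at -0.30 ± 0.19, H2-Q2 at -0.79 ± 0.55 and H2-Aa at -0.15 ± 0.19. None of the 51 members kept the genotypes apart in either direction, where 3.47% and 2.76% of all genes did; with library totals 2 were higher in knockout, Tapbp and Ctsb, and 0 lower, where 2.76% and 3.0% of all genes were.

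Class I had a median of 0.16 in that comparison, beside -0.02 over all genes and 0.02 over class II. Of the class I genes 14 of 19 were above 0, where 6956 of all 14726 genes were. Leaving out knockout normal 3 gave a class I median of 0.02, and leaving out wild-type tumor 3, normal 2 or tumor 2 gave 0.06, 0.09 and 0.11. The lists nearest to class I were read in the same fit. Of 6 immunoproteasome and PA28 genes, 5 were above 0, with a median of 0.26 and none past the adjusted threshold; the peptide-cutting subunit genes Psmb8, Psmb9 and Psmb10 were at 0.33 ± 0.14, 0.41 ± 0.19 and 0.35 ± 0.15. The 3 constitutive counterparts Psmb5, Psmb6 and Psmb7 were all below 0, with a median of -0.12. Of 8 partners that load or trim peptides, 2 were above 0, among them the trimming peptidase gene Erap1 at 0.41 ± 0.14.

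Genes that interferons are known to raise were read beside them. Of 13 measured type I interferon genes, 12 were above 0 with a median of 0.86, and none was called; Ifit1 was at 1.32 ± 0.36 and Ifi44 at 1.26 ± 0.40. Of 20 genes of the interferon gamma axis, 11 were above 0 with a median of 0.08, and none was called. Within it the guanylate-binding proteins Gbp2, Gbp3 and Gbp7 were at 0.91 ± 0.19, 1.71 ± 0.37 and 0.91 ± 0.23 (each with an edgeR adjusted p of 0.705) and Gbp6 at 0.54 ± 0.31, while Nlrc5 was at 0.10 ± 0.31 and the receptor genes Ifngr1 and Ifngr2 were at -0.69 ± 0.42 and -0.37 ± 0.18. The type I genes summed to 462 and 559.5 CPM in knockout normal 3 and knockout tumor 3, to 282 in knockout tumor 2, and to 192 to 359 in wild type. The 2 high libraries are those with the high neutrophil markers, of which all 8 were above 0 in this comparison; the part of those cells was not tested. They also share their replicate number, and the labels do not say whether they come from 1 animal. Without knockout normal 3 the type I median was 0.54, with 13 of 13 above 0, and without knockout tumor 3 it was 0.41, with 11 above 0. The 6 class I-like and CD1 genes had a median of 0.10, with 4 above 0, and the 5 co-stimulation genes one of -0.29, with 1 above 0; none was called.

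The next comparison asks how tumor differs from normal liver within the wild type. No gene was called (0.0% of 14726; 341 genes, 2.32%, had an unadjusted p under 0.05, no member among them), whereas DESeq2 called 13 and limma-voom 0, none of them a member. The unadjusted count leaned on 1 library. Without wild-type tumor 3, edgeR gave 2181 genes with an unadjusted p under 0.05, 5 of them members. None was called, and the smallest edgeR adjusted p of a member was then 0.284. The 3 peptide-loading genes had the smallest p of the class I genes: Tap2 at 0.42 ± 0.18 (95% interval -0.0013 to 0.85), Tap1 at 0.40 ± 0.21 and Tapbp at 0.42 ± 0.23, each with an edgeR adjusted p of 0.846. H2-Q10 was at 0.34 ± 0.32, H2-K1 at -0.13 ± 0.31, B2m at -0.14 ± 0.31 and H2-D1 at 0.20 ± 0.29, and all 4 intervals held 0. On the lower side Rfxank was at -0.46 ± 0.20, Rfxap at -0.34 ± 0.17 and Klrd1 at -0.91 ± 0.58, with the same adjusted p.

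In this comparison 4 members had all wild-type tumors above both normal livers, where 6.5% of all genes did: H2-Q10, H2-T22, Tap2 and Tapbp. Another 4 had all tumors below, where 8.81% of genes did: Ifi30, Rfxap, Rfxank and Gm10499. Gm10499 passed the expression filter through wild-type normal 2 alone, at 0.672 CPM against at most 0.287 CPM elsewhere. Its place among the lower members, with either scaling, was thus favoured by the filter. By library totals Tapbp alone was higher, where 4.04% of genes were, and 7 members were lower, Rfxap and Rfxank among them, where 10.8% of genes were. The class I median was 0.33 and the class II median 0.11, beside 0.0030 over all genes. With library totals they were 0.16 and -0.08 and the median of all genes was -0.15, so the class II median changed sign, and both class medians lay above that of all genes with either scaling. Without wild-type tumor 1 the class I median was 0.15, and without wild-type normal 2 it was 0.21. For class II, leaving out normal 3 or normal 2 gave -0.04 and 0.30, and leaving out tumor 2 or tumor 3 gave 0.03 and 0.17. Of the 11 macrophage markers 10, and of the 6 sinusoidal endothelium markers all, were below 0 here, with medians of -0.37 and -0.67; the endothelial sum was 133 CPM in wild-type tumor 2 and 378 to 863 CPM in the other wild-type libraries.

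**Figure D5:**
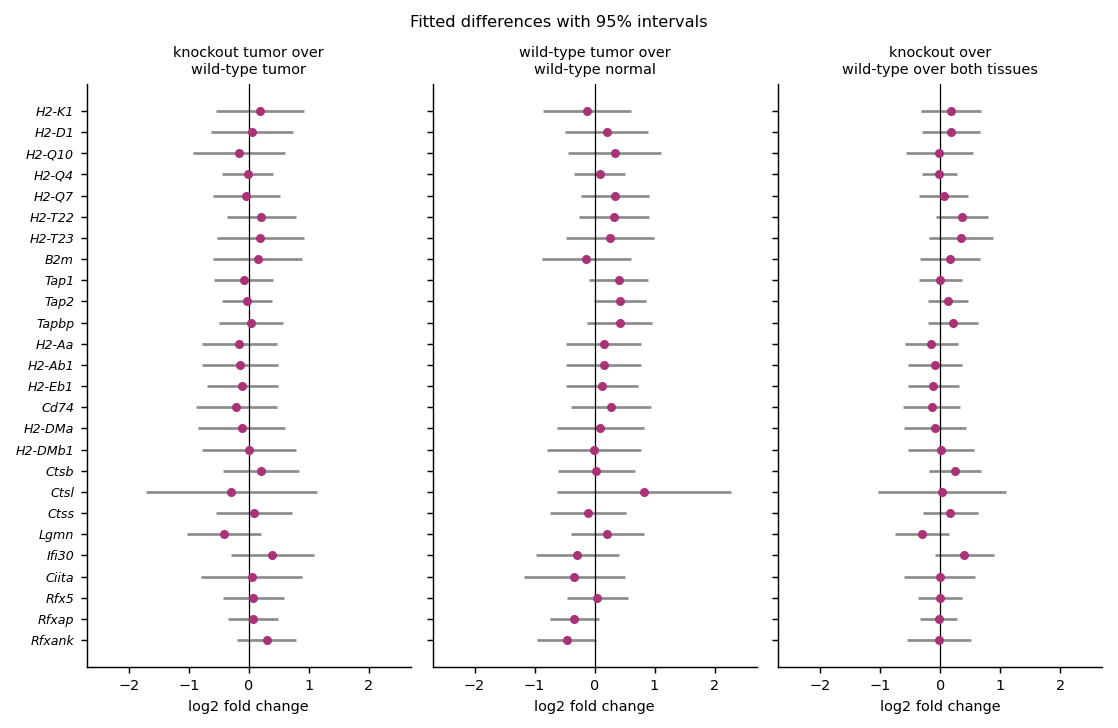
Fitted log2 fold changes (points) with 95% intervals (lines) for 26 members in 3 comparisons, from edgeR. Every interval shown reaches across 0, and that of Tap2 in wild-type tumor over normal does so by the least, from -0.0013 to 0.85.

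Over both genotypes, tumor against normal gave no called gene (0.0%; 259 genes, 1.76%, unadjusted, no member). DESeq2 called 5 genes and limma-voom 0, and no member. Cd8a, the co-receptor chain of cytotoxic T cells, was at -0.69 ± 0.31 (95% interval -1.41 to 0.03). Tap1 was at 0.32 ± 0.15, H2-Q1 at 0.87 ± 0.44 and H2-M2 at 1.15 ± 0.60, all with an edgeR adjusted p of 0.922. Rfxap was the single member with all 5 tumors below all 3 normal livers, where 0.903% of genes did so, and none lay above, where 0.964% did; by library totals it was Cd8a in place of Rfxap, where 0.862% of genes lay below and 0.713% above. The class medians were 0.19 for class I and 0.08 for class II, beside 0.01 over all genes. Without wild-type tumor 1 the class I median was 0.06, and without knockout normal 3 it was 0.34.

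The 2 comparisons that rest on the single knockout normal library, assumed to vary like the others, had no called gene either (0.0% in both). Between knockout tumor and knockout normal, 30 genes, 0.204%, had an unadjusted p under 0.05, and no member did; the smallest p belonged to Rfxank at 0.51 ± 0.28. Between knockout normal and wild-type normal it was 207 genes, 1.41%, and no member; Rfxank was at -0.67 ± 0.28 and H2-T22 at 0.61 ± 0.32. Class I had a median of 0.24 there, beside -0.03 over all genes, and of 0.06 with library totals, beside -0.20 over all genes. The tumor difference itself was compared between genotypes, with no called gene (0.0%; 47 genes, 0.319%, unadjusted). DESeq2 called 1 gene between the normal livers and 0 in the other comparisons of this kind, limma-voom called 0 in all 3, and neither called a member. In the difference of tumor effects 2 members had an unadjusted p under 0.05: Rfxank at 0.97 ± 0.35 (95% interval 0.13 to 1.81, edgeR adjusted p = 0.9999), and Gm10499, whose highest level was 0.672 CPM. These 3 comparisons share the knockout normal library, where Rfxank was at 11.3 CPM. The highest level of Gm10499 was in wild-type normal 2, the only library through which it passed the expression filter. That library enters the difference of tumor effects, so the filter favoured Gm10499 there and it adds no weight to the count of members.

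The authors' deposited tables set 1 library against 1 library and list genes past their own limits. H2-T-ps was the only member in the 3 tables read here; a further table, whose name and columns name different libraries, was not used. In the authors' deposited table of wild-type tumor 2 over normal 2 its log2 ratio was 3.44 (q = 0.180), and in that of wild-type tumor 3 over normal 3 it was -2.11 (q = 0.0201). The counts moved with them: 1.85 and 6.42 CPM in wild-type normal 2 and 3, 12.7, 15.2 and 1.59 in wild-type tumors 1, 2 and 3, 7.75 in knockout normal 3, and 9.004 and 7.97 in knockout tumors 2 and 3. The directions were opposite in the 2 pairs. H2-T-ps, annotated as an unprocessed pseudogene, overlaps Gm7030 by 1940 bases on the same strand, so reads of the pair may be split between them. Over all libraries Gm7030 had 6 counts and H2-T-ps 1111. None of the 317 genes in the authors' deposited table of knockout tumor 3 over normal 3 was a member.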

How the data were processed

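The deposited count table gives raw counts per gene, and the deposited FPKM table holds the authors' FPKM, which equal counts over length and library total for 16595 genes with a fixed implied length. Per the labels' protocols, RNA (integrity number of at least 7) went into stranded mRNA libraries. Bowtie 0.12.2 and builds mm8 and mm9 come from the submitters' processing notes, and the counting method is not given in the sources used here. The authors' deposited 1-against-1 tables give log2 ratios, p-values and q-values. Another 16 columns of values per library were not used, 2 of which match no sample.

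Genes were tested with edgeR 4.0.16 (R 4.3.3; TMM, robust quasi-likelihood, expression filter at a minimum count of 10 with the 4 groups, 14726 genes, common biological coefficient of variation 0.440). Each group had 1 mean; knockout against wild type and tumor against normal over both used an additive model. The single knockout normal library was assumed to vary like the others. P-values were adjusted over all tested genes by Benjamini-Hochberg, threshold 0.05; fold changes are log2 with standard errors. No-overlap counts use TMM-scaled CPM. Member SDs use log2(CPM + 0.5). DESeq2 1.42.0 and limma-voom (limma 3.58.1) were alternatives. The scripts were tested on simulated data. Named genes follow roles, a mean of at least 5 CPM for other heavy chains, and the 3 smallest p in each direction. Members, lists and rules were chosen with earlier results of these data known.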

Additional observations from a re-analysis of the deposited data

How the results depend on the processing

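No member was called in any comparison by edgeR, DESeq2 or limma-voom, with TMM, DESeq2 size factors or library totals, without the filter, with the replicate block or with any 1 library left out. Genes called rose from 0 with DESeq2 to 4 (knockout against wild-type tumor), 45 (knockout against wild type), 13 (wild-type tumor against normal), 5 (tumor against normal) and 1 (knockout against wild-type normal); the cause was not tested. Leaving out 1 library gave 0 to 2 called genes for knockout against wild type, the 2 without knockout tumor 2, and 0 in the other comparisons. Class medians of the log2 fold change then ranged, class I first, from -0.08 to 0.14 and -0.26 to 0.0035 for knockout against wild-type tumor, from 0.02 to 0.20 and -0.09 to 0.04 for knockout against wild type, from 0.15 to 0.43 and -0.044 to 0.30 for wild-type tumor against normal, from 0.061 to 0.34 and 0.0017 to 0.14 for tumor against normal, from -0.02 to 0.07 and -0.17 to 0.14 for knockout tumor against normal, from 0.22 to 0.27 and -0.067 to 0.22 for knockout against wild-type normal, and from -0.42 to -0.19 and -0.31 to 0.046 for the difference of the tumor effects. With library totals alone, class I and class II were at 0.16 and -0.084 for wild-type tumor against normal, at 0.063 and -0.21 for knockout against wild-type normal, and at 0.02 and 0.17 for the difference of the tumor effects, while the median of all genes was -0.15, -0.20 and 0.23. Without wild-type tumor 3, edgeR's unadjusted p was under 0.05 for 2181 genes in wild-type tumor against normal, 5 of them members. It was 1633 genes in knockout against wild-type tumor, with 0 members, and 981 in tumor against normal, with 4 members. With all libraries these counts were 341, 430 and 259, with no member.

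The labels do not say that equal replicate numbers mark 1 animal. In their deviations from group means, same-numbered wild-type normal and wild-type tumor libraries correlated at 0.141 and 0.182. Wild-type normal and knockout tumor libraries of equal number, which differ in genotype and so cannot be 1 animal, correlated at 0.256. With 2 libraries in each of those groups the deviations mirror each other, so this is 1 value for both numbers. Same-numbered tumors of the 2 genotypes were at -0.121 and -0.074. The pairs were not all above 0.1, and the number was kept out of the tests. Whether normal and tumor of 1 number share an animal was not tested; if they do, those libraries are not independent. The replicate block called 0 genes in every comparison. With it, class I and class II were at 0.15 and 0.09 for wild-type tumor against normal, at 0.14 and -0.12 for knockout against wild-type tumor (0.04 and -0.05 without it), at 0.19 and -0.03 for knockout against wild type, at 0.08 and 0.11 for tumor against normal, and at -0.07 and -0.14 for the difference of the tumor effects. Some alternatives were chosen after seeing the data: the counts of members with no overlap by library totals, and the gene lists with 1 library left out. For knockout against wild type the latter gave medians of 0.41 to 1.15 for the type I interferon genes, 0.19 to 0.31 for the immunoproteasome and PA28 genes, and 0.02 to 0.17 for the interferon gamma axis. Of the 51 members, 23 to 31 kept their sign in a comparison whichever library was left out. The same count over all genes is not given here, so these numbers have no background beside them. With 1 to 3 libraries a group, the median width of the members' 95% intervals ran from 1.02 log2 units (knockout against wild type, and tumor against normal) to 2.41 (the difference of the tumor effects).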
